A study of Mus musculus with 19 samples.

Results

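The genes described here encode the transferases of the second phase of detoxification, which attach glutathione, glucuronic acid or sulfate to reactive or poorly soluble compounds. They were chosen by gene symbol alone: every symbol of the RefSeq expression tables made of Gst, Mgst, Ugt or Sult with the usual family letters and member number was taken, and the symbol rule itself uses no measured value. Symbols of another form, such as Ugt8a, are not members. The rule found 62 of the 23337 symbols, matched by 67 of the 30455 transcript rows, and where a symbol had several rows the one with the highest mean count was used. By family these were 4 alpha, 7 mu, 2 pi, 4 theta, 2 omega, 1 zeta, 1 kappa and 3 microsomal glutathione transferases, 8 Ugt1a, 10 Ugt2 and 2 Ugt3 glucuronosyltransferase genes, and 18 sulfotransferases. The study asked how far cystic embryoid bodies (EBs), hollow aggregates grown from embryonic stem (ES) cells, resemble the endoderm of the visceral yolk sac (VYS). Total RNA depleted of ribosomal RNA was sequenced from 11 libraries: 1 of E12.5 yolk sac endoderm (ysE), 2 of E9.25 ysE, 2 of the E9.25 VYS mesoderm, 2 of E12.5 fetal liver and 4 of cystic EBs. The tissues came from FVB mice, for which the labels give no allele or treatment, with the litter pooled in each sample and the yolk sac layers parted by enzyme and dissection. The EBs were grown from ES clones A9 (XY) and JN (XX), both C57Bl/6x129, and collected on d10 and d15. Library A of each day is clone A9 and library B is clone JN, so each clone is 1 line. The JN, E9.25 ysE and E9.25 mesoderm libraries were made with dUTP marking, the A9 and liver libraries with the ScriptSeq kit and the E12.5 ysE library without strand information, so clone and protocol cannot be told apart. Other samples gave the promoter data. Bisulfite libraries of E12.5 ysE, E12.5 liver and d15 EBs came from reciprocal crosses of CAST and FVB. A map of the histone mark H3K4me3 came from E12.5 VYS of FVB/N mice.

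Glutathione transferases couple glutathione to electrophiles such as products of lipid peroxidation, and the microsomal forms sit in membranes and also act on lipid peroxides and leukotrienes. Glucuronosyltransferases use UDP-glucuronic acid in the endoplasmic reticulum to make bilirubin, steroids and drugs water soluble, and sulfotransferases use the donor PAPS on phenols, steroids and amines. In the adult these enzymes are best known from the liver, and in the mouse embryo the visceral yolk sac lies between mother and embryo as an absorptive epithelium before the fetal liver is mature.

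Promoters were read for the genes that the results turn on, from the RefSeq table of GRCm38.p6, which lists 250 bases before and 50 after each start. Of the 62 genes, 54 were listed, with 65 starts, and Gsta4, Gstt2, Sult2a1, Sult2a2, Sult2a7, Sult4a1, Ugt1a6b and Ugt3a2 were not in it. The letters TGACNNNGC (core of the antioxidant response element), GCGTG (core of the xenobiotic response element), GTTAAT (HNF1 core) and CAAAGTCCA (HNF4 site) were searched on both strands. Below, the 150 bases before a start are printed 5′ to 3′ on the strand of the gene, with every match to any of these in capitals. The first group holds some of the transferases whose levels set the tissues apart, and the pair Gstp1 and Gstp2. Among such transferases not printed, Mgst2, Gstt3 and Gsto1 have no match in these 150 bases. How common matches are among such genes therefore cannot be read from the printed stretches. The 7 listed Ugt1a starts follow because each of them opens a first exon of 1 shared locus.
Gsta3 (chr1:21240435-21240584, plus strand): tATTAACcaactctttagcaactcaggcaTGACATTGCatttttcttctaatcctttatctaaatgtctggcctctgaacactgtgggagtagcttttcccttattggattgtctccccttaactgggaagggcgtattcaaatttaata
Gstm5 (chr3:107895704-107895853, plus strand): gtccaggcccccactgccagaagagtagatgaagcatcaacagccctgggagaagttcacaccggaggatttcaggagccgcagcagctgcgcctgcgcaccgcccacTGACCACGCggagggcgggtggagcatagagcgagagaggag
Mgst1 (chr6:138140377-138140526, plus strand): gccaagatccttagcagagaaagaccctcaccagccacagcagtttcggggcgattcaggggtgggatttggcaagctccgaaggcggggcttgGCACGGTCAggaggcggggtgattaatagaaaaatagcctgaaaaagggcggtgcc
Mgst3 (chr1:167393842-167393991, minus strand): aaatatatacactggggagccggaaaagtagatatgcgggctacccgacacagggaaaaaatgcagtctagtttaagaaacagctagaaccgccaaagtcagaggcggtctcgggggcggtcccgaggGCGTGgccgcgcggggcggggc
Gstp1 (chr19:4037913-4038062, minus strand): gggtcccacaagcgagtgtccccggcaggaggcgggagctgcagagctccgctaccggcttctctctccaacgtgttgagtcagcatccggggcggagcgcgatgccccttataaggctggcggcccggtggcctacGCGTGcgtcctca
Gstp2 (chr19:4042222-4042371, minus strand): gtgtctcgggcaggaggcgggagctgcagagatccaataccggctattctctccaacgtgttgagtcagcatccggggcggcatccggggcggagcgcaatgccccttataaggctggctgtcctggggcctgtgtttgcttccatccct
Ugt1a10 (chr1:88055261-88055410, plus strand): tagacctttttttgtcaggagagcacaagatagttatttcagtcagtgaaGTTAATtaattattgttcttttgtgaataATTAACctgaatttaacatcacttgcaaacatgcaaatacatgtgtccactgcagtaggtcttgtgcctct
Ugt1a9 (chr1:88070629-88070778, plus strand): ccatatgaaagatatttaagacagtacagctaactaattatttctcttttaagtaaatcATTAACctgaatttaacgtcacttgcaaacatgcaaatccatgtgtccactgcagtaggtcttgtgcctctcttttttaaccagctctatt
Ugt1a7c (chr1:88094851-88095000, plus strand): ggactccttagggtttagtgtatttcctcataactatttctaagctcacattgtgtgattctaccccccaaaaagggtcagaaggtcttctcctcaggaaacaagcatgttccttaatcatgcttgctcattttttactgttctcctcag
Ugt1a6a (chr1:88134659-88134808, plus strand): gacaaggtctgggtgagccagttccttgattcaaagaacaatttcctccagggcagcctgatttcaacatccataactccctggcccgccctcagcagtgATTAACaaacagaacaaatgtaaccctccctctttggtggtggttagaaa
Ugt1a5 (chr1:88165862-88166011, plus strand): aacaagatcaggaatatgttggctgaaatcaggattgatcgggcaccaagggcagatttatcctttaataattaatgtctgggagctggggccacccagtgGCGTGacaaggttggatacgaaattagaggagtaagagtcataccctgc
Ugt1a2 (chr1:88200461-88200610, plus strand): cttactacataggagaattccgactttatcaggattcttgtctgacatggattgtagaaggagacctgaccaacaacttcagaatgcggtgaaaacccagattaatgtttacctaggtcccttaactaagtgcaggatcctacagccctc
Ugt1a1 (chr1:88211809-88211958, plus strand): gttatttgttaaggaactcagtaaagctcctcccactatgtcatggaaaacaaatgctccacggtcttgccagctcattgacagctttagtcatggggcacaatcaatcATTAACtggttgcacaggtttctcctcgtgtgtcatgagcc

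The core of the antioxidant response element was found in 4 of the 54 promoters (7.41%), those of Gsta3, Gstm5, Gstm7 and Mgst1, against 15.1% of 15739 genes. It began 121 bases before the Gsta3 start, 42 before the Gstm5 start and, on the reverse strand, 56 before the first Mgst1 start. In Gstm5 it overlapped a reverse match to the core of the xenobiotic response element. The xenobiotic core was in 10 of the 54 promoters (18.5%) against 42.5% of all genes, and in Mgst3 it began 22 bases before the start. The HNF1 letters were in 13 (24.1%) against 7.32%, and those 13 held 4 of the 7 listed Ugt1a genes: Ugt1a10 with matches 100 and 71 bases before its start, Ugt1a9 at 91, Ugt1a6a at 50 and Ugt1a1 at 41. Sult2a3, Sult2a4, Sult2a5 and Sult2a6 were also among the 13, and none of them had enough counts to be tested for expression. Genes of 1 cluster are not independent promoters in this share. The HNF4 letters were in 1 promoter (1.85%), that of Sult1b1, against 0.578%. The median GC content was 46.7% in the members' promoters and 57% in all, and the part of base composition in these shares was not tested. The Gstp1 and Gstp2 windows shared 246 of 300 bases (82%), and only the Gstp1 stretch above has a match.

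The libraries held 40453779 (E12.5 ysE) to 169981821 (E9.25 ysE B) counts. Levels are given as the authors' RPKM, the field's length-scaled unit, which scales counts by transcript length and by the depth of the library. The 10 ysE markers summed to 52092 RPKM in E12.5 ysE and 12154 to 13712 at E9.25, against 201 to 1427 in cystic EBs, 2118 to 3714 in liver and 1328 to 2358 in mesoderm, and none was at 0 in any group. Afp alone made up 35558 RPKM of the first sum. The sum of the 10 was lower in every EB library than in liver, but the markers did not all go that way. Amn, Cubn and Lrp2, of the uptake machinery of the endoderm, were higher in every EB library than in liver, Cubn at 9.64 to 38.0 against 0.435 and 0.55 RPKM. Erythroid markers summed to 34490 to 44189 RPKM in the mesoderm and 861 to 1030 in E9.25 ysE, 1683 to 2146 in liver and 12.3 to 129 in EBs. Pluripotency markers summed to 104.7 to 367 RPKM in EBs and to at most 6.34 elsewhere. The part these cell mixtures had in the results below was not tested, and in bulk samples fewer cells of a type cannot be told apart from less RNA per cell.

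Of the 62 genes, 40 reached a mean of 1 RPKM in at least 1 group. Their highest group mean was in E12.5 ysE for 27, in E9.25 ysE for 2, in mesoderm for 3, in liver for 5 and in cystic EBs for 3. The number at or above 1 RPKM was 34 in E12.5 ysE, 28 in ysE at E9.25, 25 in the mesodermal layer, 26 in liver and 17 in EBs. E12.5 ysE is 1 library, and its 27 genes include the 8 Ugt1a rows, which count mostly the same reads. The matching shares over all symbols were not computed, so these counts cannot be called particular to the members. The other 22 stayed below that mean everywhere, with 1.55 RPKM as the highest single value (Gsto2, d15 library B). Among these, Sult2a2, Sult2a4 and Sult2a7 had no count in any library, and 5 genes had 1 to 10 counts in all. The filter on low counts left 49 genes for testing and removed 13: Gsta1, Gstt4, Sult1c1, Sult1c2, Sult2a2 to Sult2a7, Ugt2a1, Ugt2a2 and Ugt2a3.

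**Figure D1:**
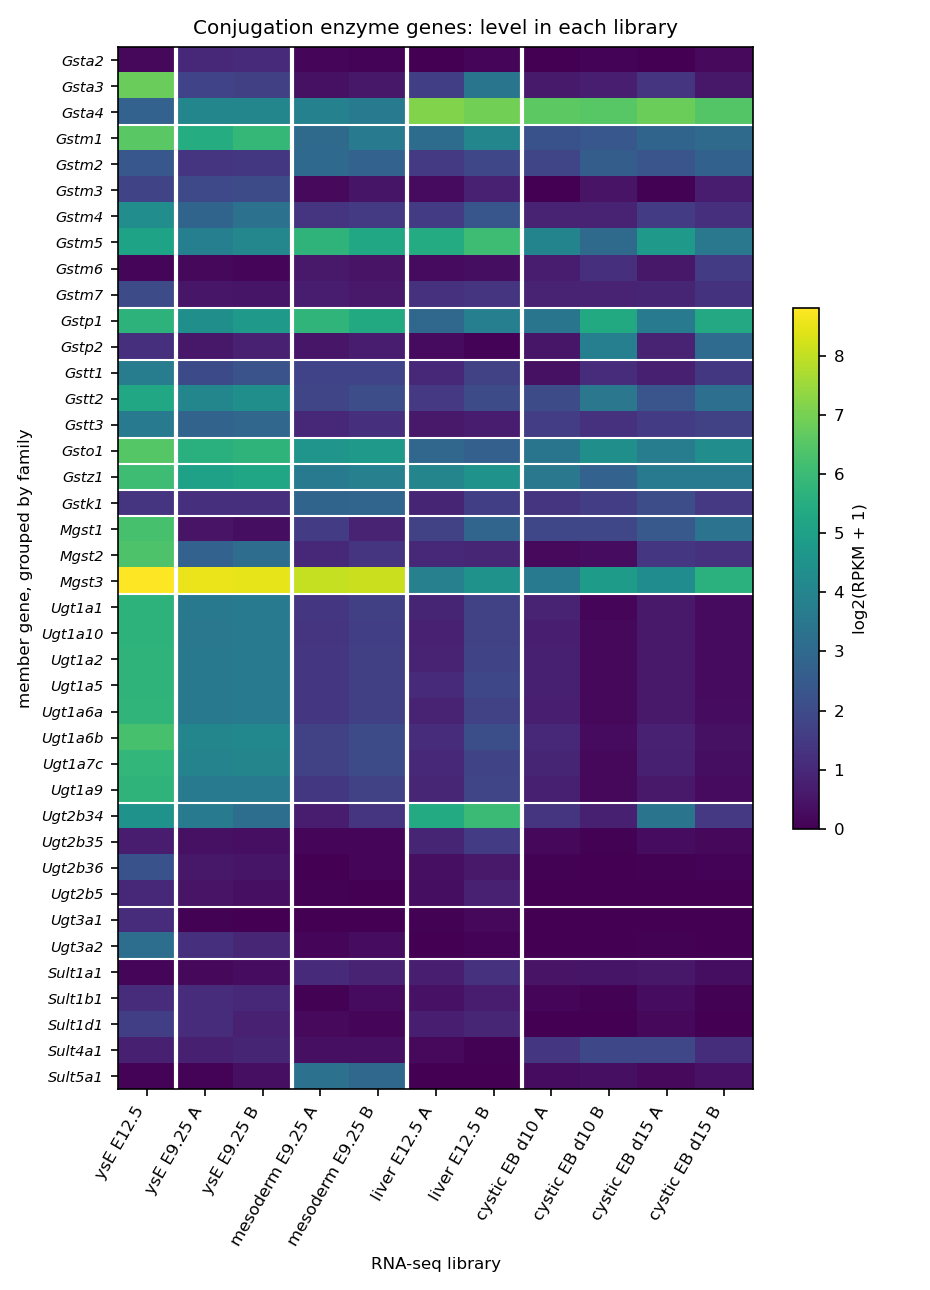
Level of the 40 genes that reached a mean of 1 RPKM in a group (rows, grouped by family) in the 11 libraries (columns, grouped by tissue), coloured by log2(RPKM + 1) from dark (0) to yellow. Mgst3 is brightest across the 5 yolk sac libraries, Gsta4 in the liver and cystic EB columns, and the 8 Ugt1a rows are bright only in ysE.

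The 24 glutathione transferases summed to 1148 RPKM in E12.5 ysE and to 595 and 625 in the E9.25 ysE libraries. The sums were 448 and 440 in mesoderm, 246 and 301 in liver, and 172, 237, 226 and 269 in EBs (d10 A, d10 B, d15 A, d15 B). Different genes supplied these sums. Mgst3, a membrane enzyme with glutathione transferase and peroxidase activity (1:167371966-167393841 on mm10), made up 39.2% of the sum in E12.5 ysE, 63.4% and 58.0% at E9.25, and of the mesodermal sums 58.1% and 62.1%. In liver it was 5.39% and 7.27%, and in EBs 6.65% to 18.0%. Gsta4, an alpha transferase that acts on the lipid peroxidation product 4-hydroxynonenal (9:78191966-78209349), made up 56.6% and 40.8% in liver and 32.4% to 55.5% in EBs, against 0.502% in E12.5 ysE and 2.49% to 3.07% in the E9.25 libraries.

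**Figure D2:**
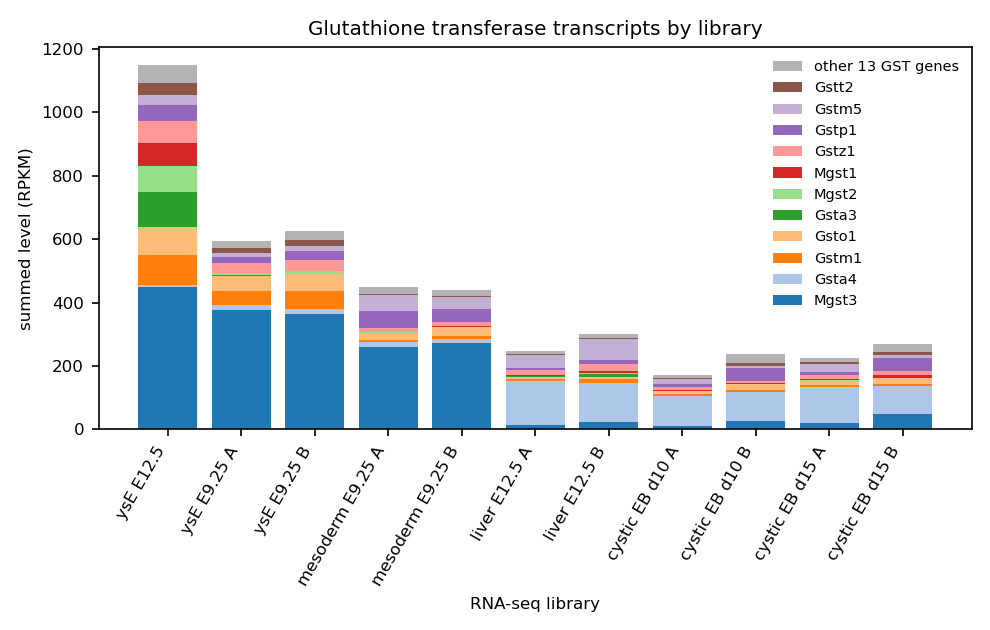
Summed RPKM of the 24 glutathione transferases in each of the 11 libraries, stacked by gene, with the 13 less abundant ones in grey. The bars run from 172 (cystic EB d10 A) to 1148 (E12.5 ysE). Mgst3 is the largest segment in the 5 yolk sac bars and Gsta4 in the liver and cystic EB bars.

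Mgst3 stood at 450.0 RPKM in E12.5 ysE, 377 and 363 in ysE at E9.25, 260.2 and 273 in the mesodermal layer, 13.3 and 21.9 in liver and 11.4, 27.5, 18.7 and 48.4 in EBs. Every yolk sac library, of either layer, lay above every liver and EB library. In the quasi-likelihood test of edgeR, adjusted by Benjamini-Hochberg over 24858 transcripts, it was lower in EBs than in E9.25 ysE by a log2 fold change of -4.27 (SE 0.45, adjusted p = 0.000106) and than in E12.5 ysE by -4.47 (SE 0.50, adjusted p = 0.000192). Between EBs and liver the difference was 0.25 (SE 0.46, adjusted p = 0.678), and between the E9.25 layers 0.79 (SE 0.53, adjusted p = 0.292), and neither passed. Gsta4 ran the other way, at 5.76 RPKM in E12.5 ysE, 15.5 and 15.6 in ysE at E9.25, 13.7 and 11.01 in the mesodermal layer, 139 and 123 in liver and 95.2, 91.7, 114 and 86.9 in EBs. The EB libraries lay above all yolk sac libraries and below both liver libraries. It was higher in EBs than in E9.25 ysE by 2.20 (SE 0.22, adjusted p = 7.66e-05) and lower than in liver by 0.76 on the log2 scale (-0.76, SE 0.19, adjusted p = 0.00993). P-values here measure only the spread between these samples, which are pooled litters or cultures of 2 clones.

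E9.25 ysE was first set against the mesoderm of the same stage, which asks what marks the endodermal layer. Of the 49 tested genes, 22 were higher in ysE, against a background of 13.7% of all transcripts, and 4 were lower, against 16.9%. Their median log2 fold change was 1.88, against -0.05 over all transcripts, and 2.60 when genes without counts in 1 group were set to their bound and those without counts in both were left out. The backgrounds over all transcripts, here and below, count every tested transcript row. Each member and pathway gene is instead the row of its symbol with the highest mean count, so these shares cover unlike sets. Among glutathione transferases, Gstm1, a mu enzyme, stood at 43.5 and 58.0 RPKM in ysE and 7.18 and 11.8 in mesoderm (2.73, SE 0.45, adjusted p = 0.00177). Gstz1, which isomerises maleylacetoacetate in tyrosine breakdown, stood at 31.8 and 36.2 against 11.4 and 13.2 RPKM (1.78, SE 0.34, adjusted p = 0.00377). The libraries of the layers did not overlap for either gene. The other 6 transferases that were higher were Gstt2 (2.91), Gsta3 (2.82), Gstt3 and Mgst2 (2.77 each), Gstm4 (2.48) and Gsto1 (1.33). The glucuronosyltransferases gave 13 of the 22: the 8 Ugt1a rows (2.77 to 2.87, adjusted p = 0.0148 to 0.0266), Ugt2b5 (3.86), Ugt2b34 (3.51), Ugt2b36 (3.44), Ugt3a2 (3.24) and Ugt2b38, which had 55 counts in ysE and 3 in mesoderm. The call of Ugt2b38 was lost with DESeq2, with its size factors, without the filter on low counts and with the replicate block, and that of Ugt2b34 with the block. Sult1b1, a sulfotransferase of phenols and thyroid hormone, was the only sulfotransferase that was higher (3.50, SE 1.0, adjusted p = 0.0258).

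The 4 genes that were lower in ysE than in mesoderm were Sult5a1, Sult1a1, Gstk1 and Gstm2. Sult5a1 (8:123142843-123158914) stood at 8.74 and 6.66 RPKM in mesoderm, 0.058 and 0.289 in E9.25 ysE, 0.06 in E12.5 ysE, 0.019 and 0.011 in liver and 0.218, 0.27, 0.181 and 0.347 in EBs. Only the mesoderm libraries were above 1 RPKM, and the difference from ysE was -5.12 (SE 0.71, adjusted p = 0.00082). Gstk1, a kappa transferase of mitochondria and peroxisomes, stood at 6.25 and 6.26 RPKM in mesoderm and 1.32 and 1.34 in ysE (-1.91, SE 0.50, adjusted p = 0.0179). Sult1a1, a phenol sulfotransferase, differed by -2.10 (SE 0.56, adjusted p = 0.0193) and Gstm2 by -1.70 (SE 0.41, adjusted p = 0.0116). With 2 libraries a layer these calls rested on each library: 7 remained without ysE A, 8 without ysE B, 5 without mesoderm A and 9 without mesoderm B. Calls then made up 10.2% to 18.4% of the members, against 16.4% to 19.8% of all transcripts. Gstm1, Gstt2, Gstt3, Gstz1 and Sult5a1 remained in each of these, and no Ugt1a row did in any.

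E12.5 ysE was next set against fetal liver of the same day, the endodermal organ of the embryo proper. Of the 49 genes, 24 were higher in ysE (background 22.6%) and 2 were lower (23.7%), with a median log2 fold change of 2.71 (2.75 with bounds) against -0.26 over all transcripts. The ysE side is 1 library, assumed to vary like the other groups, and tissue and library protocol cannot be told apart. Microsomal transferases were far apart. Mgst2, an enzyme of leukotriene C4 synthesis, stood at 81.6 RPKM in ysE and 0.991 and 0.912 in liver (6.45, SE 1.12, adjusted p = 0.00153), Mgst3 differed by 4.72 (SE 0.65, adjusted p = 0.000469) and Mgst1 by 4.16 (SE 0.82, adjusted p = 0.00292). Of the cytosolic glutathione transferases, Gstt3 (4.37), Gsta3 (4.24), Gstt2 (4.02), Gsto1 (3.92), Gstm1 (3.06), Gstt1 (2.90), Gstm4 (2.71), Gstp1 (2.41) and Gstz1 (1.91) were higher in ysE, where Gstz1 reads are not separated from those of the overlapping Pomt2. Gsto1 is an omega enzyme that reduces dehydroascorbate, and it stood at 88.4 RPKM in ysE and 6.45 and 5.47 in liver. The 8 Ugt1a rows (4.79 to 5.15), Ugt3a2 (8.04), Ugt3a1 (3.75), Ugt2b36 (3.25) and Sult4a1 (2.81) completed the 24. The call of Ugt3a1 was lost with the replicate block and kept in 4 of 7 alternatives. Gsta4 (-4.47, SE 0.35, adjusted p = 4.37e-05) and Sult1a1 (-3.54, SE 0.86, adjusted p = 0.00813) were lower in ysE. Ugt2b34, at 40.7 and 63.7 RPKM in liver the most abundant Ugt2 gene there and 22.3 in E12.5 ysE, was not called. Hepatoblast markers did not move one way: Fgb stood at 1508 RPKM in E12.5 ysE and 99.8 and 194 in liver, and Alb at 80.5 in ysE and 358 and 767 in liver.

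Between the stages of ysE, 5 genes were higher at E12.5 (background 3.9%) and Gsta4 was lower (background 4.57%). All transcripts had a median of -0.21 in this comparison, which moved to -0.04 with DESeq2's size factors, and the split over all transcripts moved from 969 higher and 1137 lower to 1240 and 876. The members' split was 5 and 1 under both scalings. The median of the 49 genes was 1.03 (1.04 with bounds). Mgst1, of the endoplasmic reticulum and the outer mitochondrial membrane, stood at 74.8 RPKM at E12.5 and 0.382 and 0.243 at E9.25 (7.82, SE 0.94, adjusted p = 0.00264). Gsta3, an alpha transferase that also isomerises steroid precursors, stood at 110 RPKM at E12.5 and 2.42 and 2.17 at E9.25 (5.49, SE 0.88, adjusted p = 0.00826). Both were at most 9.87 RPKM in every library other than E12.5 ysE. Ugt3a1 (5.80, SE 1.45, adjusted p = 0.0401) and Gstm7 (2.73, SE 0.46, adjusted p = 0.00994) were also higher, and Ugt2b1, with 11 counts at E12.5 and none at E9.25, was at least 25.3-fold higher. Without either E9.25 library Mgst1 alone was called. DESeq2 called 9 higher and 1 lower (9.12% and 8.43% of all transcripts), and edgeR on only the groups compared 30 and 3 (25.1% and 25.2%). Stage and library protocol cannot be told apart here, and without strand information reads of overlapping genes on opposite strands, Gstz1 and Pomt2 among them, are not separated in the E12.5 library.

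Cystic EBs were then set against E9.25 ysE, the stage with 2 ysE libraries. The EB libraries come from 2 clones but were fitted as independent here and in the other EB comparisons. The SEs and p-values of these comparisons may therefore be too small. Of the 49 genes, 27 were lower in EBs (background 23.2%) and 7 were higher (27.1%), with a median log2 fold change of -2.15 (-2.19 with bounds) against 0.17 over all transcripts. By class, 12 of 22 tested glutathione transferases were lower and 5 higher, 13 of 17 glucuronosyltransferases were lower and 1 higher, and 2 of 10 sulfotransferases were lower and 1 higher. The 13 and the 17 each include the 8 Ugt1a rows, which count mostly the same reads. Gstm1 stood at 3.69, 4.30, 6.17 and 7.30 RPKM in EBs (-3.69, SE 0.36, adjusted p = 6.98e-05), below both ysE libraries. Mgst2 stood at 0.161, 0.236, 1.60 and 1.38 RPKM in EBs and 5.90 and 7.84 in ysE (-3.48, SE 0.73, adjusted p = 0.00374). Both d10 libraries lay below both d15 libraries. Also lower were Gsta2 (-4.38), Mgst3 (-4.27), Gstm3 (-3.95), Gstm4 (-3.03), Gstt1 (-2.24), Gstz1 (-2.22), Gsto1 (-2.15), Gstt3 (-2.14), Gsta3 (-1.95) and Gstt2 (-1.92).

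Among the glucuronosyltransferases, Ugt3a2, which uses sugars other than glucuronic acid, stood at 1.32 and 0.945 RPKM in ysE and at 0.004 to 0.04 in EBs (-6.45, SE 0.95, adjusted p = 0.000563). Ugt2b5 had no count in any EB library and was at least 67.6-fold lower, Ugt2b37 at least 29.0-fold and Ugt2b38 at least 20.2-fold, all against a floor of 3 counts over the 4 libraries. Ugt2b36 differed by -4.07 (SE 0.66, adjusted p = 0.000957) and the 8 Ugt1a rows by -5.36 to -5.25. Ugt2b34 was not called (-1.95, SE 0.86, adjusted p = 0.0838). It stood at 1.58, 0.704, 9.61 and 1.74 RPKM in EBs, where d15 library A reached the range of the ysE libraries (11.6 and 8.17). Sult1d1, a sulfotransferase of catechols (-5.25), and Sult1b1 (-3.93) were lower too.

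The 7 genes that were higher in EBs than in E9.25 ysE were Mgst1, Gsto2, Sult6b1, Gstm6, Gsta4, Gstm2 and Ugt2b1. Mgst1 stood at 2.70, 2.70, 4.47 and 9.37 RPKM in EBs and 0.382 and 0.243 in ysE (3.48, SE 0.72, adjusted p = 0.00342). Gsto2 (3.11), Sult6b1 (2.78) and Gstm6 (2.65) were low, the last at 0.577, 1.34, 0.485 and 1.97 RPKM in EBs and 0.145 and 0.107 in ysE. Gstm2 differed by 0.99 (SE 0.36, adjusted p = 0.0442), a call kept in 6 of 12 alternatives, and Ugt2b1 had 12 counts in EBs and none in ysE (at least 3.63-fold). Against E12.5 ysE, which shares the EB libraries with the preceding comparison, 32 genes were lower (background 18.8%) and 3 were higher (21.1%), with a median of -3.12 (-3.22 with bounds) against 0.42 over all transcripts. Gsta4 (3.71, SE 0.33, adjusted p = 5.89e-05), Gstm6 (3.37) and Gsto2 (3.08) were the higher ones, and the latter pair lost this call with only the groups compared. The E12.5 ysE arm is 1 library, so its spread is borrowed from the other groups. Mgst1 and Ugt2b1 in EBs lay between the stages of ysE: against E12.5, Mgst1 differed by -4.34 (SE 0.65, adjusted p = 0.000799) and Ugt2b1 by -3.22. By class, 14 of 22 glutathione transferases, 16 of 17 glucuronosyltransferases and 2 of 10 sulfotransferases were lower. The 16 and the 17 again include the 8 Ugt1a rows. Among the lowest against E12.5 ysE were Ugt2b5 (at least 208-fold lower), Ugt3a2 (-9.22), the Ugt1a rows (-7.49 to -7.23), Gsta3 (-7.44), Ugt2b36 (-7.06) and Mgst2 (-6.96). With the 2 JN libraries alone, made with the same protocol as E9.25 ysE, 31 genes were lower (29.5% of all transcripts) and 7 higher (26.9%) than in E9.25 ysE, and the call of Ugt2b1 was lost.

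Fetal liver was the embryonic endoderm control, and it shares the EB libraries with the comparisons above. Of the 49 genes, 24 were lower in EBs than in liver (background 20.9%) and 7 were higher (24.6%), with a median of -1.21 (-1.32 with bounds) against 0.20 over all transcripts. Glucuronosyltransferases made up 14 of the 24: Ugt2b34 (-4.23, SE 0.89, adjusted p = 0.00445), Ugt2b35 and Ugt2b36 (-3.80 each), Ugt2b1 (-3.03), Ugt2b5 (at least 129-fold lower), Ugt3a1 and the 8 Ugt1a rows (-2.66 to -2.18, adjusted p = 0.00638 to 0.0204). Sulfotransferases gave 4, namely Sult1d1 (-4.86), Sult1b1 (-2.63), Sult1a1 (-1.75) and Sult2a1, a steroid sulfotransferase with 1 count in EBs and 23 in liver. With the A9 libraries alone Sult1b1, Sult2a1, Ugt2b1 and Ugt3a1 lost their calls, and DESeq2 did not call Sult2a1. Ugt1a7c lost its call with only the groups compared. The 6 glutathione transferases that were lower were Gsta3 (-3.20), Gstm5 (-2.21), Gstm4 (-1.58), Gstm1 (-1.43), Gstz1 (-1.21) and Gsta4 (-0.76). Each of the 8 hepatoblast markers was lower in every EB library than in both liver libraries, with sums of 9.60 to 80.9 RPKM against 531 to 1124, and their part was not tested. Gstm5 stood at 42.4 and 65.9 RPKM in liver and 14.9, 7.27, 25.4 and 10.5 in EBs, with no overlap.

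The 7 genes that were higher in EBs than in liver were Gstp2, Sult4a1, Sult5a1, Gsto2, Gstm6, Gstt3 and Gsto1. With only the groups compared Gstm6, Gsto2 and Gsto1 lost this call, and Gstm6 also with the A9 libraries alone. Sult4a1, a sulfotransferase known from the brain (15:84076097-84105754), stood at 1.60, 2.79, 2.64 and 1.24 RPKM in EBs, 0.157 and 0.044 in liver and 0.285 to 0.878 in the yolk sac libraries. Every EB library was above every other, and the difference from liver was 4.02 (SE 0.65, adjusted p = 0.00111). The difference of Sult4a1 from E9.25 ysE was not called. Gstt3 differed from liver by 1.5 (SE 0.29, adjusted p = 0.00297) and Gsto1 by 1.02 (SE 0.30, adjusted p = 0.0207), both of them genes that were lower in EBs than in ysE. Liver library B decided many of these calls, since without it 10 genes were called in place of 31 and no Ugt1a row was. Lower calls then made up 14.9% of the members and 13.4% of all transcripts, and higher calls 6.38% and 13.5%. With the 2 A9 libraries alone, made with the same kit as liver, 23 genes were lower (25% of all transcripts) and 6 higher (27.6%).

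**Figure D3:**
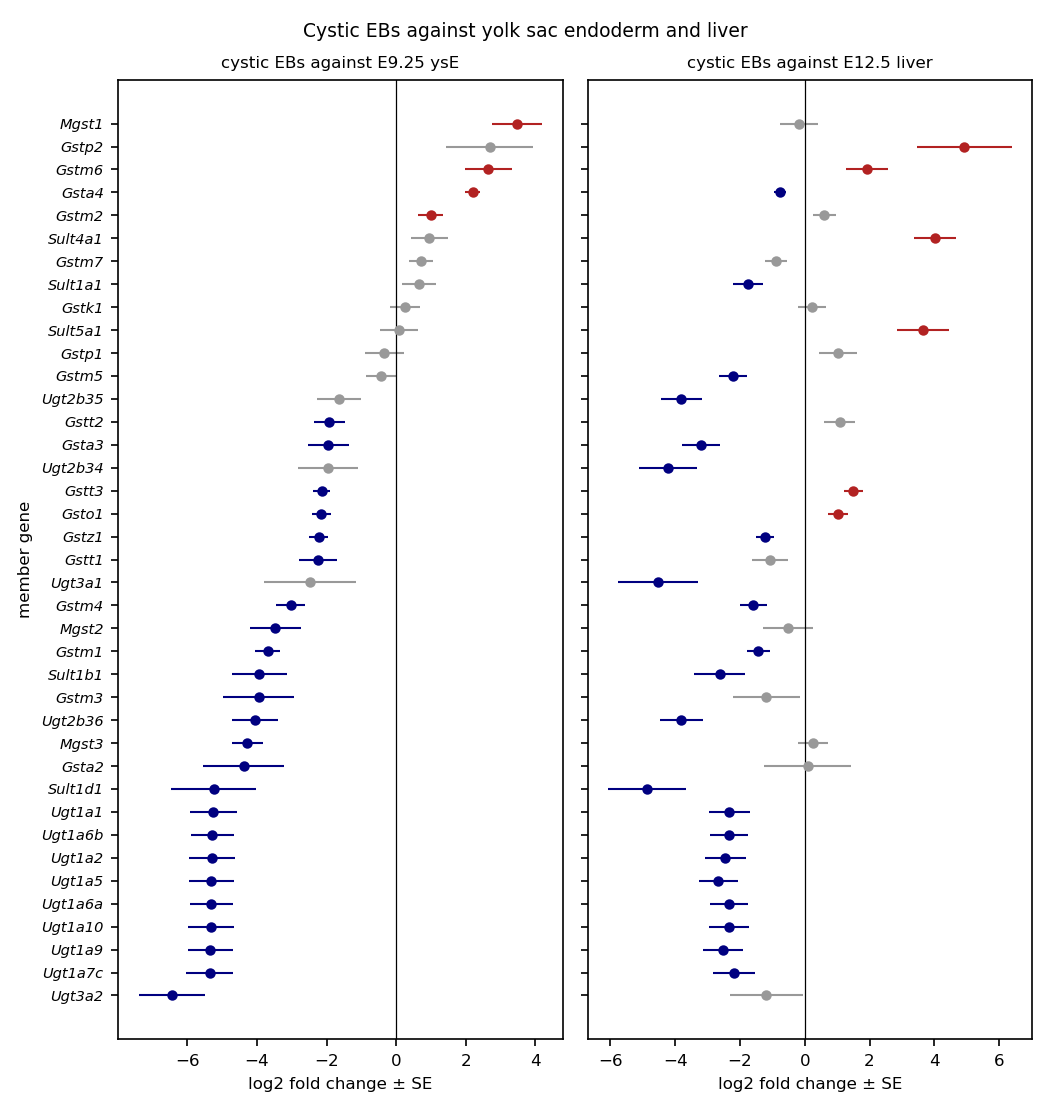
Log2 fold change ± SE of 39 genes in cystic EBs (n = 4 libraries of 2 clones) against E9.25 ysE (n = 2, left) and E12.5 liver (n = 2, right). Genes are in the order of the left panel, red where called higher, navy where called lower and grey where not called at an FDR of 5%. Ugt2b5 is left out because it had no counts in EBs. Mgst3 lies at -4.27 on the left and 0.25 on the right, and the 8 Ugt1a rows lie together on the lower side in both panels.

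The Ugt1a locus (1:88055411-88220002 over the listed starts) makes its enzymes, among them the bilirubin transferase Ugt1a1, from separate first exons joined to the same later exons. The 8 rows therefore count mostly the same reads and are no independent genes: in each library the lowest row held 67.7% to 88.6% of the counts of the highest. Ugt1a1 stood at 51.4 RPKM in E12.5 ysE, 10.9 and 11.4 in ysE at E9.25, 1.62 and 2.20 in the mesodermal layer, 0.877 and 2.33 in liver and 0.784, 0.126, 0.525 and 0.185 in EBs. All ysE libraries were above all others, and every EB library was below both liver libraries. Ugt1a1 was lower in EBs than in E9.25 ysE by -5.25 (SE 0.67, adjusted p = 0.000264). The difference between the stages of ysE was not called by edgeR over all groups for any row (1.87 to 2.18, adjusted p = 0.122 to 0.219), whereas DESeq2 called 2 rows and edgeR on only the groups compared called 8. With the 8 rows taken as 1 locus, 42 genes were tested. Higher and lower calls were then 15 and 4 for E9.25 ysE against mesoderm (background 13.7% and 16.9%). They were 17 and 2 for E12.5 ysE against liver (22.6% and 23.7%) and 7 and 20 for EBs against E9.25 ysE (27.1% and 23.2%). For EBs against liver they were 7 and 17 (24.6% and 20.9%). The members' median log2 fold changes were then 1.33, 1.92, -1.93 and -0.98 in the same order. They were 0.86 between the stages of ysE and -2.89 for EBs against E12.5 ysE.

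Counts above the lowest row are reads that the lowest row did not receive, and no file splits them by exon. Ugt1a7c (1:88095001-88220002) had 1496 of 2058 such counts in E9.25 ysE A (72.7%), 2398 of 3185 in B (75.3%) and 73.1% and 77.2% in the mesoderm libraries. In E12.5 ysE it had 915 of 1879 (48.7%), followed by Ugt1a6a with 25.9%, Ugt1a6b with 15.8% and Ugt1a9 with 8.3%. In liver the largest share was that of Ugt1a5, with 33.6% of 301 and 27.9% of 390, ahead of Ugt1a7c with 25.2% and 20%. EB libraries had 76, 17, 45 and 72 such counts in all, too few to read an order from. The row with the largest share thus differed between ysE and liver, which was not tested, and how the counting assigned shared reads to the rows is not given in the sources used here.

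**Figure D4:**
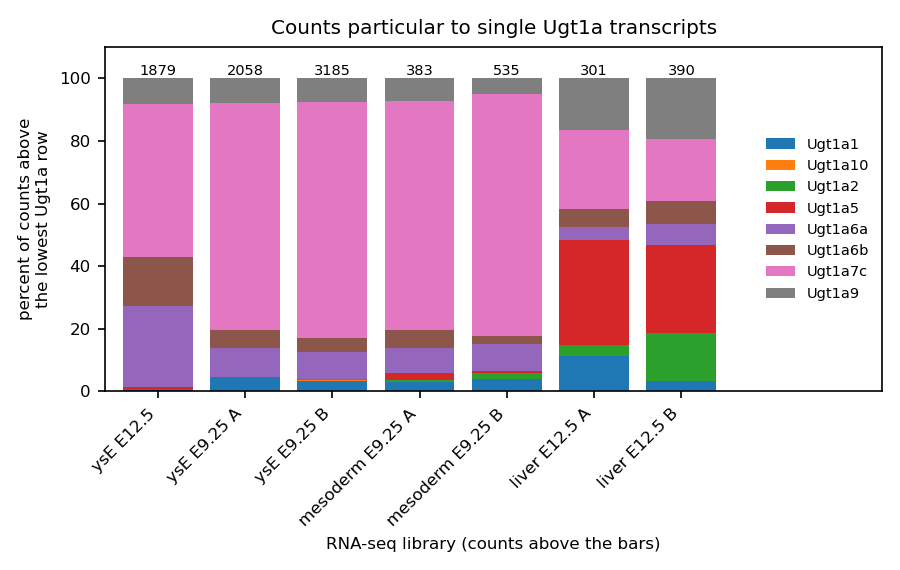
Share of the counts above the lowest Ugt1a row that fell to each of the 8 rows, as percent of the total printed over each bar, in the 7 tissue libraries. Ugt1a7c takes 72.7% to 77.2% in the 4 E9.25 libraries and 48.7% in E12.5 ysE, and Ugt1a5 takes 33.6% and 27.9% in liver. Cystic EBs are left out because their libraries held at most 76 such counts.

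Between d15 and d10 of the EBs, edgeR called 0 of 38 tested members and 0 of 22452 transcripts (background 0% each way). Mgst2 had an unadjusted p of 0.00918 (2.87, SE 0.69), the only member under 0.05, against 304 of all transcripts. With clone as a block, since both days used the same clones, 8 members and 2392 of all transcripts had an unadjusted p under 0.05 and none was called, and DESeq2 called 0 members and 11 transcripts. Mgst2 was 9.95 times as high on d15 as on d10 in A9 and 5.86 times in JN. Of the 40 genes with a mean of 1 RPKM in a group, 15 (37.5%) were higher on d15 in both clones and 0 lower in both, against 31.0% and 27.4% of 13535 symbols at that level. The 40 include the 8 Ugt1a rows, which count mostly the same reads and were lower on d15 in A9 but higher in JN. These shares were not tested.

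Single genes differed between the clones, which was not tested. The largest ratio of JN to A9 was that of Gstm3, 30.0 on d10 and 19.9 on d15, at 0.577 RPKM or less. It rests on 1 (d10) and 2 (d15) counts in A9, against 54 and 86 in JN. Gstp2, a pi transferase beside Gstp1 on chromosome 19 (19:4040288-4042221), stood at 12.96 and 7.46 RPKM in the JN libraries, 0.463 and 0.86 in the A9 libraries and at most 1.295 in every tissue library. JN was above A9 by 28.0 times on d10 and 8.68 times on d15. Gstp1 stood at 40.2 and 39.2 RPKM in JN and 9.88 and 11.2 in A9, a ratio of 4.07 and 3.51, and Mgst3 was 2.41 and 2.59 times as high in JN. Gstm5 went the other way, at 0.486 and 0.412. Over the 40 genes, 12 (30%) were higher in JN on both days and 14 (35%) lower, against 42.6% and 33.4% of all symbols. The 14 include the 8 Ugt1a rows, which count mostly the same reads, so 1 locus weighs heavily in that share. Clone, sex and protocol cannot be told apart, and reads may be split between the near-identical Gstp1 and Gstp2, as also within the Gsta1 and Gsta2 pair, the Gstm, Ugt2a, Ugt2b and Sult2a clusters.

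The wider pathway was taken as 91 tested genes in 6 lists: 21 of glutathione supply, 14 of glucuronidation and sulfation cofactors, 13 other conjugating enzymes, 14 relatives of glutathione transferases and of membrane proteins in eicosanoid and glutathione metabolism (MAPEG), 10 pumps that export conjugates and 19 regulators. In E9.25 ysE against mesoderm 36 were higher and 12 lower, and in E12.5 ysE against liver 42 and 11 (background 22.6% and 23.7%). Against E9.25 ysE, EBs had 12 of them higher and 46 lower. Against liver EBs had 24 higher and 29 lower (background 24.6% and 20.9%), and the 24 are near the share over all transcripts. Against E12.5 ysE the counts were 7 and 45 (background 21.1% and 18.8%). Between the stages of ysE 14 were higher and 3 lower at E12.5 (background 3.9% and 4.57%). That count changed strongly with the libraries and groups fitted, as given at the end. In E9.25 ysE against mesoderm the background was 13.7% higher and 16.9% lower, and in EBs against E9.25 ysE 27.1% and 23.2%, for each list below.

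Of the 10 pumps, 8 were higher and 2 lower in E9.25 ysE than in mesoderm, and 1 was higher and 9 lower in EBs than in E9.25 ysE. The exception was Abcc1, a pump of glutathione conjugates and leukotriene C4, at 0.226 and 0.256 RPKM in E9.25 ysE, 0.008 in E12.5 ysE, 3.91 and 3.71 in the mesodermal layer, 3.04 and 3.52 in liver and 6.14, 5.94, 5.36 and 5.61 in EBs. Every EB library lay above all others, and Abcc1 was higher in EBs than in E9.25 ysE by 4.13 (SE 0.21, adjusted p = 1.5e-05). Abcb1b, a multidrug pump, stood at 201 RPKM in E12.5 ysE, 14.6 and 15.6 in ysE at E9.25, 0.429 and 0.573 in liver and 5.58 to 8.18 in EBs (E12.5 ysE against liver 8.69, SE 0.41, adjusted p = 2.61e-05). Of the 19 regulators, 10 were higher and 1 lower in E9.25 ysE than in mesoderm, and 1 was higher and 9 lower in EBs than in E9.25 ysE. Hnf4a, a nuclear receptor of endoderm that is also among the ysE markers, stood at 87.1 and 98.4 RPKM in E9.25 ysE, and 5.23 and 11.5 in the mesodermal layer (3.78, SE 0.57, adjusted p = 0.00115). Nr1h4, the bile acid receptor, stood at 6.35 and 6.54 RPKM in E9.25 ysE and 0.04, 0.07, 0.229 and 0.093 in EBs (-6.37, SE 0.58, adjusted p = 5.47e-05). Nqo1, a quinone reductase, was the regulator list's higher gene in EBs (1.90, SE 0.57, adjusted p = 0.0204). Nr1i2, the xenobiotic receptor PXR, was lower in EBs than in liver by -7.52 (SE 0.38, adjusted p = 2.51e-06).

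In the list of glutathione supply, 6 of 21 genes were higher and 4 lower in E9.25 ysE than in mesoderm, and 6 and 8 in EBs than in E9.25 ysE. Its 4 lower genes in ysE (background 16.9%) and 6 higher genes in EBs (background 27.1%) are near the share over all transcripts. Ggt6, of the gamma-glutamyltransferase family, stood at 1.02 and 1.49 RPKM in E9.25 ysE, 0.033 and 0.184 in the mesodermal layer and 0.009 to 0.029 in EBs (EBs against ysE -6.42, SE 0.71, adjusted p = 0.000128). Gpx8, a peroxidase of the endoplasmic reticulum, was lower in ysE than in mesoderm by -4.82 (SE 0.45, adjusted p = 0.000189). Chac1, which degrades glutathione, had no count in liver and was at least 177-fold higher in EBs. Among the cofactor genes 5 were higher and 2 lower in E9.25 ysE than in mesoderm, and 1 and 8 in EBs than in E9.25 ysE. The sulfate transporter Slc26a1 stood at 19.5 RPKM in E12.5 ysE, 2.65 and 3.14 in ysE at E9.25, 0.335 and 0.625 in the mesodermal layer, 2.22 and 3.64 in liver and 0.275 to 0.609 in EBs. EBs and mesoderm lay below all ysE and liver libraries, and EBs differed from E9.25 ysE by -3.26 (SE 0.38, adjusted p = 0.00015). Of the other conjugating enzymes, 4 were higher and 1 lower in E9.25 ysE than in mesoderm and 2 and 7 in EBs than in E9.25 ysE, with Glyat, a glycine acyltransferase, at -4.62 (SE 0.41, adjusted p = 4.75e-05). In the list of relatives the counts were 3 and 2, and 1 and 5, and Ptges, a MAPEG prostaglandin E synthase, was lower in ysE than in mesoderm by -4.62 (SE 0.69, adjusted p = 0.00115) and higher in EBs than in E9.25 ysE by 1.81 (SE 0.57, adjusted p = 0.0244).

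H3K4me3, a histone mark of active promoters, was mapped in 1 library of E12.5 VYS, which contains both the ysE and the mesoderm, so a peak cannot be assigned to either layer. A peak lay within 1 kb of a start in 19 of the 54 members (35.2%), against 9688 of 15739 genes (61.6%). The score of the peak caller MACS, which grows as the p-value against the input falls, was 3100 for Mgst3, Gstm1 and Gstz1, 2783 for Ugt2b34, 2613 for Mgst2, 2400 for Gsto1, 2388 for Mgst1 and 1915 for Gstp1. Of the listed Ugt1a starts only that of Ugt1a7c had a peak, with a score of 646, and Gstp2 had none.

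DNA methylation was measured by whole-genome bisulfite sequencing in E12.5 ysE, E12.5 liver and d15 cystic EBs, 1 library each of the reciprocal crosses CAST x FVB (CxF) and FVB x CAST (FxC), with the EBs from 1 F1 ES clone each. The methylation level within 1 kb of a start, where at least 5 reads covered it, was available for 28 to 34 members a library. For a gene with several listed starts it was read at the first listed one, whereas an H3K4me3 peak at any of them counted. Here and below a read is counted at each CpG it covers and summed over the window. Numbers of reads are thus CpG readings, and a read over several CpGs counts more than once. The members' median was 54.5% and 58.6% in ysE (CxF, FxC), 70% and 75% in liver and 91.1% and 83.3% in EBs. The medians over all genes were 33.3% and 30%, 45% and 50%, and 60% and 55.6%. EBs were highest and ysE lowest in both sets, and 2 libraries against 2 cannot give an exact p below 0.33. The members so covered changed from library to library. In the 8 with 5 reads in all 6 libraries the medians were 52.3% and 63.3%, 83.7% and 89.9%, and 82.8% and 66.7%, so liver was highest there. Members with a peak had medians of 44.5% and 29.2% in ysE, on 12 and 8 members, and 73.1% and 66.7% in EBs. The mean of the ysE pair was 36.8%, and 7.74% within 500 bases, where 6 and 3 members were covered. The mean of the EB pair was 69.9%, and 46.0% with at least 10 reads, where 1 library held 1 member. Members without a peak had 56.7% and 67.9% in ysE. Their liver medians were 70% and 77.5%, and their EB medians 100% and 88.9%. Over all genes without one, in the same order, the medians were 60% and 52.6%, 76.9% and 77.8%, and 90% and 85.7%.

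Single promoters were covered by few reads, and the exact (Clopper-Pearson) 95% intervals given here cover counting error only. They take every CpG reading as independent, so they are too narrow where a read covers several CpGs. Around the Mgst3 start 0 of 12 and 0 of 10 reads were methylated in ysE, which allows up to 26.5% and 30.8%. In liver 3 of 46 (6.52%) and 1 of 14 (7.14%) were methylated, and in EBs 3 of 12 (25%, interval 5.49 to 57.2) and 4 of 6 (66.7%, 22.3 to 95.7). Both EB levels lay above both ysE levels on few reads, and the difference was not tested. Within 500 bases of the Mgst3 start the CxF EB library held 2 reads, at 0%, and the FxC EB library held 0. The methylated EB reads thus lay more than 500 bases from the start, and methylation of EBs nearer to it was hardly measured. The Ugt1a1 start was at 85.4% (35 of 41) and 69.2% (9 of 13) in ysE. It was at 94.0% and 91.4% in liver, against 91.3% and 63.6% in EBs, so both liver libraries lay above all others and the ysE and EB libraries overlapped. Around the Sult5a1 start 10 of 10 and 12 of 13 reads were methylated in ysE, 7 of 7 and 9 of 9 in liver and 24 of 24 in EBs (CxF). The mesoderm, where Sult5a1 was expressed, was not analysed here for methylation, and the Gsto and Gstp genes of chromosome 19 were not analysed here.

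**Figure D5:**
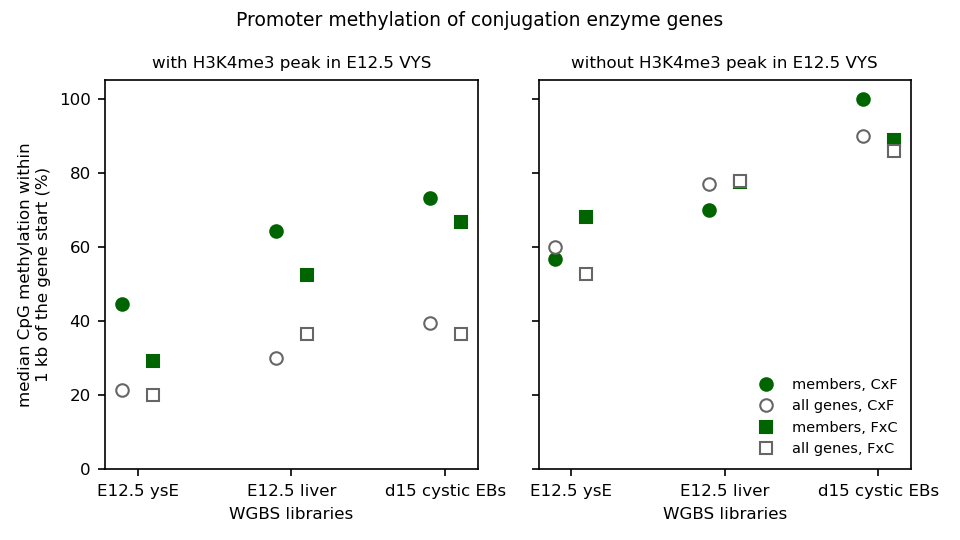
Median methylation level (percent) within 1 kb of the first listed start, for members (filled) and all genes (open) with an H3K4me3 peak in E12.5 VYS (left) and without one (right), in the CxF (circles) and FxC (squares) libraries. A peak at any listed start of a gene counted. The members' medians go from ysE (44.5% and 29.2%) to cystic EBs (73.1% and 66.7%) on the left, and lie above those of all genes in each of the 6 libraries there. On the right they lie above in 3 libraries and below in 3.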

How the data were processed

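The authors aligned RNA-seq reads with GSNAP to mm10 and deposited raw counts and RPKM per RefSeq transcript (RSeQC and custom scripts). How the RPKM library size was counted is not given in the sources used here. The deposited bisulfite tables hold the percent methylation and reads per CpG, called with BisSNP, and the deposited H3K4me3 peaks carry the score of MACS 1.4.2.

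Counts were fitted in R 4.3.3 with edgeR 4.0.16 (filterByExpr, TMM, 5 groups sharing 1 spread, quasi-likelihood test, Benjamini-Hochberg FDR of 5%), a procedure tested on simulated data, with DESeq2 1.42.0 and limma 3.58.1 installed beside it. RPKM values are described, not tested. Figures and intervals used Python 3.11.15. Depth was 40453779 to 169981821 counts a library, and replicates differed beyond sampling noise. The d10 and d15 EBs of a letter are the same clone, and their deviations correlated at 0.638, so the test of days, made without pairing, was repeated with clone as a block. Genes were named as called members or, in the pathway lists, as the called gene with the largest change each way. The members and lists were chosen with earlier results of these data known. Alternatives covered scaling, filters, DESeq2, pairing, groups fitted, left-out libraries, read minimum and promoter width.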

Additional observations from a re-analysis of the deposited data

Results flagged for a closer look

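In the 4 cystic EB libraries, 39 genes of the 40 described were tested for a library far from the other 3 by Dixon's ratio at its 95% critical value, which chance gives in about 1 of 20 groups. The test marked 5. Ugt2b34 stood at 9.61 RPKM in d15 library A and 0.704 to 1.74 in the others. Gsta3 stood at 1.52 RPKM in d15 A and 0.495 to 0.665 in the others. Sult1d1 stood at 0.139 RPKM in d15 A and 0 to 0.013 in the others, on 19 counts against 0, 0 and 4. Ugt3a1 stood at 0.023 RPKM in d15 A, on 3 counts, and 0 in the others, where any count would be marked. Gstm7 stood at 1.46 RPKM in d15 B and 0.819 to 0.87 in the others. The 10 ysE markers summed to 1427 RPKM in d15 A and 201 to 640 in the other EB libraries, and their part in these values was not tested.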

How the results depend on the processing

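Values below are numbers of the members called, as higher or lower, unless said otherwise. Leaving out 1 library in turn changed E9.25 ysE against mesoderm from 26 to between 5 and 9, EBs against liver from 31 to between 10 and 32, and E12.5 against E9.25 ysE from 6 to 1 each time. For the last, DESeq2 called 10 and a fit of only the groups compared 33, and the pathway lists went from 17 to 48 with only those groups and to 5 without either E9.25 library. Where leaving out a tissue library lowered the members' calls, the share of all transcripts called fell as well. In the fits that raised the counts between ysE stages, the share of all transcripts called rose too. The cause was not tested. The fits with a library left out and those of only the groups compared hold fewer samples, whereas the DESeq2 fit holds all libraries. The members' methylation medians averaged 56.6% in ysE (60.8% with at least 10 reads, 48.3% within 500 bases) and 87.2% in EBs (100% within 500 bases).

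With the replicate block the calls were 26 (26 without it) for E9.25 ysE against mesoderm, 34 (34) for EBs against E9.25 ysE, 34 (31) for EBs against liver, 25 (26) for E12.5 ysE against liver, 6 (6) between ysE stages and 36 (35) for EBs against E12.5 ysE. In the same order, 32.2%, 52.2%, 46.7%, 47.9%, 9.4% and 41.6% of all transcripts were called with the block. The members' counts do not say that the same genes were called. The labels do not say whether letters outside the EBs mark a shared source. Of 1543 alternative values for single members, 1379 stayed on the same side of the threshold, 164 lost their call (139 of 694 on leaving out a library, 25 of 849 otherwise) and 0 changed direction. The Ugt1a rows as 1 locus, which gave 19, 27, 24, 19, 6 and 28 calls in the same order, and the alternatives for the pathway lists were added after seeing the data. Precision is limited by 1 to 4 libraries a group and by the few bisulfite reads.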
